A study of Mus musculus with 12 samples.

Results

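The isthmic organizer genes are 10 genes chosen by name from the deposited count table of 36255 genes: Fgf8, Fgf17, Wnt1, En1, En2, Pax2, Pax5, Cnpy1, Gbx2 and Otx2. All 10 have a row in the table. The isthmus is the constriction between midbrain and hindbrain. Its cells send FGF and Wnt signals that pattern the midbrain in front and the cerebellum behind, and Engrailed and Pax transcription factors hold that signalling state in place. Otx2 on the midbrain side and Gbx2 on the hindbrain side repress each other in the mouse embryo, and the line where they meet sets the position of the organizer.

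The series asked how SKP1A, the adaptor subunit of SCF ubiquitin ligases, acts on PRC2, the Polycomb complex that keeps developmental genes silent. Poly(A) RNA of mouse embryos was sequenced in 11 libraries. They were 2 libraries labelled Skp1aKO, 2 labelled Skp1acont and 1 labelled Skp1acont PI, all at 9.5 days post coitum (dpc), and 2 labelled wt PI at 9.5 dpc, 2 labelled wt at 9.5 dpc and 2 labelled wt at 9.0 dpc. Each library of a pair carries a lot number, used here as the replicate number. The labels give embryo as the source and leave "cont", "PI", "lot" and the title word "mb" unexplained. They give no strain, Cre driver, deleted exon or embryo count, so that the p-values below reflect only how far libraries of a group differ, and that difference may be technical.

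Total counts ran from 2320599 to 4203553 in the 5 libraries with a Skp1a label and from 3392251 to 11607085 in the 6 wt libraries. A count of 0 therefore allowed up to 0.714 to 1.29 CPM, the count scaled to library depth, in the libraries with a Skp1a label. In the wt libraries it allowed up to 0.259 to 0.884 CPM, with counting error only. These floors use library totals alone. The levels printed below carry a further scaling across libraries, so they are not on the scale of the floors. Skp1a itself had 199 and 212 CPM in the Skp1aKO-labelled pair, 303 and 104 CPM in the Skp1acont pair, 273 CPM in the Skp1acont PI library and 930 to 1337 CPM in the 6 wt libraries. The 2 libraries labelled Skp1aKO lay between those labelled Skp1acont, so that the level of the targeted gene did not separate these labels, and every library with a Skp1a label was below every wt library. The names Skp1aKO and Skp1acont therefore stand for the libraries so labelled, and directions between them are between labels. The libraries with a Skp1a label also stood apart in makeup. Mitochondrial genes took 5.98% to 15.8% of their counts, against 2.44% to 4.01% in wt. Over 1470 chemoreceptor genes (olfactory, vomeronasal and taste), not known to be used in mid-gestation embryos, the median level was 0.236 to 0.982 CPM per kb of exon in the libraries with a Skp1a label, against 0.134 to 0.201 CPM per kb in wt.

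Promoter sequence is shown for 5 members whose levels differed among the wt groups below, each of them called in at least 1 comparison of those groups. The windows run from 250 bases before to 50 bases after an annotated start and come from RefSeq on GRCm38.p6, which held windows for 7 of the 10 members. Capitals mark matches, on either strand, to 4 motifs: the homeodomain core TAATTA, the Otx site TAATCC, the Ets site CCGGAAG of the factors that FGF signals act through, and the Tcf site CTTTGA of Wnt signalling. For Cnpy1 and Otx2, which have several windows, the one with the most matches is printed. The other Cnpy1 window held no match, and among the other Otx2 windows only that starting at 48667595 held one, to TAATTA. The window of Wnt1, which was also called among the wt groups, held none of the 4 motifs and is not printed.
En1: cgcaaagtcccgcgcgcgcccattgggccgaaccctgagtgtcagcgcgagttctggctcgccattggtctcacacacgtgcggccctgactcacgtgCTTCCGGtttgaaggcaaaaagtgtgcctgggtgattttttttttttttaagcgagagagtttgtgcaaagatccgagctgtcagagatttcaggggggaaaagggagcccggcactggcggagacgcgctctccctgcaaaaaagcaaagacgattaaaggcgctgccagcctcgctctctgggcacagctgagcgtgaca
Gbx2: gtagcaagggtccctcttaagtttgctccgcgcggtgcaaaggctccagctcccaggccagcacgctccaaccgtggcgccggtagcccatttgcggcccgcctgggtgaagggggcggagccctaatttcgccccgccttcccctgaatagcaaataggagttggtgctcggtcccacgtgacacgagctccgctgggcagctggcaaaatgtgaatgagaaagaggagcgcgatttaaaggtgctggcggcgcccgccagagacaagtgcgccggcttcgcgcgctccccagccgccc
Otx2: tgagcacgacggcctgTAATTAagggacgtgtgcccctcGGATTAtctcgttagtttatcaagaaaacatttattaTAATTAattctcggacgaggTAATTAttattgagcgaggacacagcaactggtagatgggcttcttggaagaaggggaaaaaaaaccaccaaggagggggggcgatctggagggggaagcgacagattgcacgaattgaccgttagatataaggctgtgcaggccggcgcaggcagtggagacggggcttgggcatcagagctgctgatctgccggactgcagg
Pax5: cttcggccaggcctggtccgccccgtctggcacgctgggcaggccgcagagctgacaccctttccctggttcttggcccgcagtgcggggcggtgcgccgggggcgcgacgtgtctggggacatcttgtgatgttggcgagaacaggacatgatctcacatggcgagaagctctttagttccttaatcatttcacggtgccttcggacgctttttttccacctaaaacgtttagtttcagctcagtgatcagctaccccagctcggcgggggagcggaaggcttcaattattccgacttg
Cnpy1: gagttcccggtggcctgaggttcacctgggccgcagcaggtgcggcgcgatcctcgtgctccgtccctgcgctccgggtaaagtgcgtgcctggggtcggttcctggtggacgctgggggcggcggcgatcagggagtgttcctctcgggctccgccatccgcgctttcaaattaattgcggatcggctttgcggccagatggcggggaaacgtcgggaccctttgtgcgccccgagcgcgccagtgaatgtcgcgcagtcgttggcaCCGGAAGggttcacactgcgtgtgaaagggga
The En1 window, chr1:120602237-120602536 on the plus strand, held 1 Ets match, and the Cnpy1 window, chr5:28210119-28210418 on the minus strand, also held 1. The Otx2 window, chr14:48665060-48665359 on the minus strand, held 3 matches to TAATTA and 1 to TAATCC. The Gbx2 window, chr1:89931127-89931426 on the minus strand, and the Pax5 window, chr4:44710645-44710944 on the minus strand, held none of the 4. Of all 32851 windows in the table, 5.29% held TAATTA, 7.06% TAATCC, 8.86% CCGGAAG and 16.0% CTTTGA. A match describes letters and is not a site.

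The levels that follow are CPM after TMM scaling of all 11 libraries, and lengths are those of the merged exons in GENCODE M21 on GRCm38. Statements that groups did or did not overlap describe single libraries. The share of all genes that stood likewise was not counted. The secreted signals were low. Fgf8 (ENSMUSG00000025219.13, chromosome 19, 45736798 to 45742915, minus strand), the FGF ligand on which the organizer depends, had 10 and 16 reads in the libraries labelled Skp1aKO, 6 and 16 in the Skp1acont pair, 7 in the Skp1acont PI library, 4 and 11 in wt PI, 1 and 1 in 9.5 dpc wt, and 0 and 6 in 9.0 dpc wt. As levels these were 2.14 and 3.53 CPM in Skp1aKO, 1.14 and 4.83 CPM in the Skp1acont pair, 1.37 CPM in the Skp1acont PI library, 1.38 and 1.18 CPM in wt PI, 0.367 and 0.135 CPM in 9.5 dpc wt, and 0 and 0.711 CPM in 9.0 dpc wt. Per kb of exon, Fgf8 was above the 90th percentile of the receptor genes in 0 of 5 libraries with a Skp1a label and in 1 of 6 wt libraries. In the other libraries its level lay within the range of such genes.

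Fgf17 (ENSMUSG00000022101.6, chromosome 14, 70636203 to 70642268, minus strand), a related ligand made around the same boundary, had 4.28 and 5.74 CPM in the Skp1aKO-labelled pair, 14.6 and 6.34 CPM in the Skp1acont pair, 8.41 CPM in the Skp1acont PI library, 10.3 and 12.7 CPM in wt PI, 11.8 and 15.0 CPM in 9.5 dpc wt, and 8.30 and 10.6 CPM in 9.0 dpc wt. The libraries labelled Skp1aKO were the lowest of all, and wt PI overlapped both other wt groups. Wnt1 (ENSMUSG00000022997.9, chromosome 15, 98789857 to 98793837, plus strand), the Wnt ligand of the midbrain side, had 9.20 and 7.51 CPM in Skp1aKO, 13.1 and 3.92 CPM in the Skp1acont pair, 11.7 CPM in the Skp1acont PI library, 10.3 and 7.74 CPM in wt PI, 2.20 and 4.46 CPM in 9.5 dpc wt, and 3.81 and 6.64 CPM in 9.0 dpc wt. Wnt1 was higher in both wt PI libraries than in the other 4 wt libraries, which overlapped each other.

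Cnpy1 (ENSMUSG00000044681.19, chromosome 5, 28200819 to 28245806, minus strand) encodes a protein of the endoplasmic reticulum that promotes FGF signalling at this boundary in zebrafish. It had 55.9 and 50.8 CPM in the Skp1aKO-labelled pair, 80.4 and 22.6 CPM in the Skp1acont pair, 61.3 CPM in the Skp1acont PI library, 114 and 133 CPM in wt PI, 124 and 118 CPM in 9.5 dpc wt, and 18.0 and 17.7 CPM in 9.0 dpc wt. The 4 wt libraries at 9.5 dpc were above every other library and the 2 at 9.0 dpc were below every other library. Cnpy1 is the next annotated gene to En2, on the opposite strand, with 28652 bases and 0 annotated genes between them.

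The Engrailed genes encode homeodomain repressors needed for the midbrain and cerebellum. En1 (ENSMUSG00000058665.8, chromosome 1, 120602418 to 120607992, plus strand) had 54.8 and 59.6 CPM in the Skp1aKO-labelled pair, 32.9 and 17.2 CPM in the Skp1acont pair, 45.6 CPM in the Skp1acont PI library, 63.1 and 66.4 CPM in wt PI, 23.5 and 29.1 CPM in 9.5 dpc wt, and 51.5 and 51.6 CPM in 9.0 dpc wt. En2 (ENSMUSG00000039095.8, chromosome 5, 28165694 to 28172166, plus strand) had 62.9 and 70.2 CPM in Skp1aKO, 54.5 and 28.1 CPM in the Skp1acont pair, 72.2 CPM in the Skp1acont PI library, 43.8 and 40.7 CPM in wt PI, 58.0 and 52.6 CPM in 9.5 dpc wt, and 20.4 and 22.4 CPM in 9.0 dpc wt. The 3 wt groups did not overlap for either gene, and they stood in different orders: in wt at 9.5 dpc, En1 was lowest and En2 highest.

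The Pax genes encode paired-domain transcription factors of the boundary region. Pax2 (ENSMUSG00000004231.15, chromosome 19, 44756045 to 44837871, plus strand) had 9 and 8 reads in the libraries labelled Skp1aKO, 12 and 9 in the Skp1acont pair, 22 in the Skp1acont PI library, 4 and 15 in wt PI, 1 and 4 in 9.5 dpc wt, and 5 and 18 in 9.0 dpc wt. These were 1.93 and 1.77 CPM in Skp1aKO, 2.28 and 2.72 CPM in the Skp1acont pair, 4.31 CPM in the Skp1acont PI library, 1.38 and 1.61 CPM in wt PI, 0.367 and 0.541 CPM in 9.5 dpc wt, and 1.73 and 2.13 CPM in 9.0 dpc wt. Per kb of exon, Pax2 was above the 90th percentile of the receptor genes in 0 of 5 libraries with a Skp1a label and in 0 of 6 wt libraries.

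Pax5 (ENSMUSG00000014030.15, chromosome 4, 44524757 to 44710487, minus strand) was above that percentile in 3 of 5 libraries with a Skp1a label and in 6 of 6 wt libraries. It had 42.0 and 53.4 CPM in the Skp1aKO-labelled pair, 30.8 and 34.1 CPM in the Skp1acont pair, 41.1 CPM in the Skp1acont PI library, 33.4 and 33.3 CPM in wt PI, 11.8 and 12.0 CPM in 9.5 dpc wt, and 16.3 and 21.0 CPM in 9.0 dpc wt. Its level in the 2 wt PI libraries and in all 5 with a Skp1a label was above that in the 4 other wt libraries.

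The last pair places the boundary. Gbx2 (ENSMUSG00000034486.8, chromosome 1, 89927956 to 89931179, minus strand), the homeodomain factor of the hindbrain side, had 2.14 and 3.75 CPM in the Skp1aKO-labelled pair, 0.760 and 0.302 CPM in the Skp1acont pair, 3.72 CPM in the Skp1acont PI library, 8.27 and 8.71 CPM in wt PI, 2.94 and 4.87 CPM in 9.5 dpc wt, and 15.2 and 14.6 CPM in 9.0 dpc wt. The Skp1acont values rested on 4 and 1 reads and were the lowest of all libraries. Otx2 (ENSMUSG00000021848.16, chromosome 14, 48657677 to 48673819, minus strand), the homeodomain factor of forebrain and midbrain, had 193 and 182 CPM in Skp1aKO, 221 and 90.6 CPM in the Skp1acont pair, 214 CPM in the Skp1acont PI library, 196 and 191 CPM in wt PI, 264 and 269 CPM in 9.5 dpc wt, and 112 and 143 CPM in 9.0 dpc wt. Among the wt libraries the 2 genes stood in opposite orders, Gbx2 highest and Otx2 lowest at 9.0 dpc.

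Divided by exon length, so that genes can be compared within a library, Otx2 was the highest member by group mean in all 6 groups, at 30.3 to 63.1 CPM per kb. Pax2 was the lowest in 4 groups, Fgf8 in wt at 9.0 dpc and Gbx2 in Skp1acont. Gbx2 was above the 90th percentile of the receptor genes in 0 of 5 libraries with a Skp1a label and in 6 of 6 wt libraries. En2 and Otx2 were above it in all 11 libraries, and En1 and Cnpy1 in 4 of 5 with a Skp1a label and 6 of 6 in wt. Fgf17 was above it in 2 of 5 libraries with a Skp1a label and 6 of 6 in wt, and Wnt1 in 2 of 5 and 5 of 6. En2, Pax2, Pax5, Gbx2 and Otx2 overlap other annotated genes, on one strand or the other, and reads of the overlaps cannot be told apart here.

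**Figure D1:**
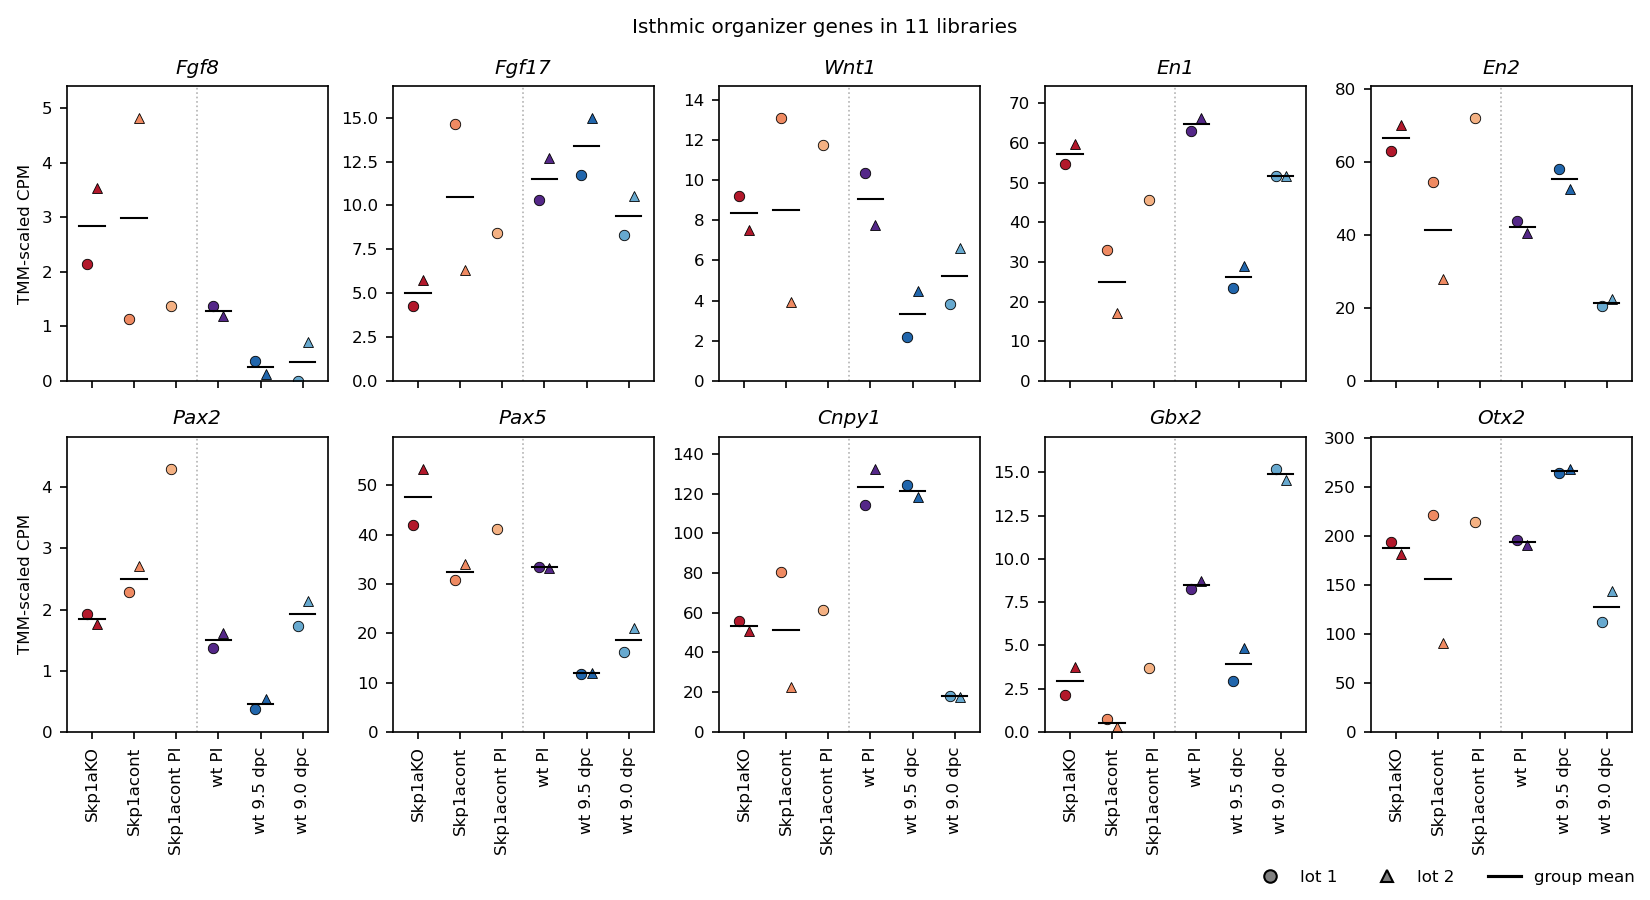
TMM-scaled CPM of each member (vertical axis, starting at 0, scaled per panel) in the 11 libraries, with the 6 groups along the horizontal axis; circles are lot 1, triangles lot 2, the bar is the group mean, and a dotted line parts the libraries with a Skp1a label from wt. In the Cnpy1 panel the wt libraries at 9.0 dpc sit at 18.0 and 17.7 CPM, below all others, and in the Gbx2 panel the Skp1acont libraries sit at 0.760 and 0.302 CPM.

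The first comparison asked how the members changed between these stages in wt embryos. Cnpy1, En2 and Otx2 were higher at 9.5 dpc than at 9.0 dpc, and Gbx2, En1 and Pax5 were lower. Among the 10 members, 8 passed the filter on low counts, and 6 of these were called at an adjusted p under 0.05 by edgeR's quasi-likelihood test on the 6 wt libraries, 3 in each direction. Over all genes tested, 31.7% were called. Cnpy1 averaged 121 ± 4.40 CPM at 9.5 dpc and 17.8 ± 0.232 CPM at 9.0 dpc (SD, n = 2 each), a log2 fold change of 2.80 ± 0.12 (SE, adjusted p = 1.52e-06). En2 averaged 55.3 ± 3.81 CPM at 9.5 dpc and 21.4 ± 1.41 CPM at 9.0 dpc, a log2 fold change of 1.39 ± 0.13 (adjusted p = 6.18e-05). Otx2 averaged 266 ± 3.23 CPM and 128 ± 21.7 CPM at these stages, a log2 fold change of 1.09 ± 0.12 (adjusted p = 1.67e-04).

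The members that fell by 9.5 dpc were led by Gbx2. It averaged 3.90 ± 1.37 CPM at 9.5 dpc and 14.9 ± 0.454 CPM at 9.0 dpc, and its log2 fold change was -1.80 ± 0.24 (adjusted p = 5.30e-04). En1 averaged 26.3 ± 3.95 CPM at 9.5 dpc and 51.6 ± 0.0104 CPM at 9.0 dpc, a log2 fold change of -0.93 ± 0.12 (adjusted p = 4.56e-04). Pax5 changed by -0.64 ± 0.17 (log2, adjusted p = 0.0151), a call that was lost without either wt library at 9.5 dpc, without replicate 2 at 9.0 dpc and with DESeq2, at adjusted p from 0.0603 to 0.256. Wnt1 had a log2 fold change of -0.58 ± 0.37 (adjusted p = 0.277). Fgf17 had one of 0.52 ± 0.21 (adjusted p = 0.0819), which passed with the lot number as a replicate block (adjusted p = 0.0214) and with library totals in place of TMM (adjusted p = 0.0498).

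The 2 members under the filter are given by their reads. Fgf8 had 2 reads in the pair at 9.5 dpc and 6 in the pair at 9.0 dpc, a ratio of 0.373 after scaling, with a 95% counting interval of 0.0368 to 2.09. Pax2 had 5 reads at 9.5 dpc and 23 at 9.0 dpc, a ratio of 0.243 with an interval of 0.0723 to 0.655, which covers counting error only. Both Pax2 libraries at 9.5 dpc were below both at 9.0 dpc, and for Fgf8 the pairs overlapped.

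Genes that act with the members were examined in 3 lists. Of 9 genes of the midbrain, 8 rose by 9.5 dpc and 0 fell, with a median log2 fold change of 1.33, against -0.025 over all genes tested. They included Mab21l2, a midbrain and eye developmental gene (2.31 ± 0.19), the ephrin Efna2 (1.56 ± 0.11), the bHLH factor Tal2 (1.48 ± 0.12) and the homeodomain factor Dmbx1 (1.33 ± 0.17). Of 8 other isthmus genes, 2 rose and 3 fell, with a median of -0.361. The FGF ligand Fgf15 (0.66 ± 0.13) and the corepressor gene Tle4 (0.40 ± 0.10) rose. Lmx1b, a LIM homeodomain factor that maintains Wnt1 and Fgf8 (-1.28 ± 0.28), Pax8 (-0.90 ± 0.21) and the zinc finger gene Sp8 (-0.41 ± 0.13) fell. With library totals, 2 of the 8 were called higher and 2 lower. Of 13 tested FGF receptor and response genes, 4 rose and 4 fell, and with library totals 4 rose and 2 fell. The receptor genes Fgfr3 (1.86 ± 0.17) and Fgfr2 (0.96 ± 0.17) were higher, and the FGF-response gene Flrt3 (-0.96 ± 0.10) and the feedback inhibitor Spred1 (-0.44 ± 0.10) were lower, though Spred1 was not called with library totals (adjusted p = 0.0583).

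Markers of cell types moved with the stage. The summed level of 6 neural progenitor markers was 2492 to 2921 CPM at 9.5 dpc and 552 to 569 CPM at 9.0 dpc. That of 4 surface ectoderm markers was 25.7 to 36.3 CPM at 9.5 dpc and 220 to 225 CPM at 9.0 dpc, and that of 5 blood markers 14810 to 19700 CPM and 7700 to 7976 CPM. Their part in the members' changes was not tested, and in whole-tissue RNA fewer cells of a type and less RNA per cell cannot be told apart. The region markers stayed low in both groups, at 11.4 to 25.3 CPM at 9.5 dpc and 9.01 to 12.1 CPM at 9.0 dpc for 5 forebrain genes. For 6 hindbrain genes they were 4.60 to 4.77 CPM at 9.5 dpc and 6.64 to 10.03 CPM at 9.0 dpc.

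**Figure D2:**
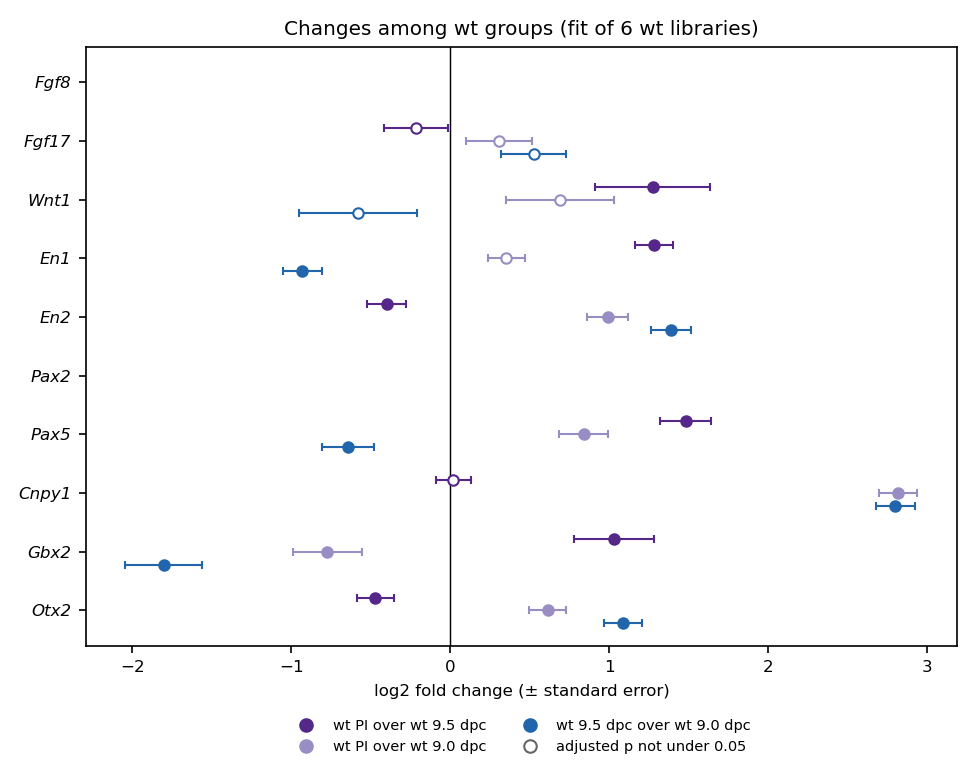
Log2 fold change with its standard error (horizontal axis) for each member among the 3 wt groups, from the fit of the 6 wt libraries; filled points have an adjusted p under 0.05, and Fgf8 and Pax2 have no point because they did not pass the filter. Cnpy1 lies at 2.80 and 2.82 against wt at 9.0 dpc and at 0.02 for wt PI against wt at 9.5 dpc, while En1 and Gbx2 are negative for wt at 9.5 dpc against wt at 9.0 dpc and positive for wt PI against wt at 9.5 dpc.

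The next comparison set wt PI against wt at the same stage, 9.5 dpc. Pax5, En1, Wnt1 and Gbx2 were higher in wt PI, and Otx2 and En2 were lower. These 6 of the 8 tested members were called, where 28% of all genes were. Pax5 averaged 33.4 ± 0.0710 CPM in wt PI and 11.9 ± 0.206 CPM in wt, a log2 fold change of 1.48 ± 0.16 (adjusted p = 3.26e-04). En1 averaged 64.7 ± 2.31 CPM in wt PI and 26.3 ± 3.95 CPM in wt, a log2 fold change of 1.28 ± 0.12 (adjusted p = 1.98e-04). Both libraries of wt PI were above both of wt for each of these genes, though the share of all genes that stood so was not counted.

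Wnt1 had a log2 fold change of 1.27 ± 0.36 (adjusted p = 0.0262) and Gbx2 one of 1.03 ± 0.25 (adjusted p = 0.0131). Otx2 changed by -0.47 ± 0.12 (adjusted p = 0.0144) and En2 by -0.40 ± 0.12 (adjusted p = 0.0366). Each of these 4 calls was lost when certain single libraries were left out, which left 1 library in that group. Wnt1 and En2 were no longer called without either wt PI library or without wt replicate 1, Gbx2 without wt PI replicate 2 or wt replicate 1, and Otx2 without either wt PI library, at adjusted p from 0.0581 to 0.227. The number of called members ran from 2 to 6 when single libraries were left out. Cnpy1 had nearly the same level in both groups, with a log2 fold change of 0.02 ± 0.11 (adjusted p = 0.941), and Fgf17 had one of -0.22 ± 0.20 (adjusted p = 0.479). Fgf8 had 15 reads in wt PI and 2 in wt, a ratio of 6.22 with an interval of 1.45 to 56.1. Pax2 had 19 and 5 reads in these groups, a ratio of 3.15 with an interval of 1.14 to 10.8, and for both genes each wt PI library was above each wt library.

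The other isthmus genes differed in the same comparison. Of these 8 genes, 5 were higher in wt PI and 1 was lower, with a median log2 fold change of 0.787, against 0.014 over all genes. The higher ones included Fgf15 (1.29 ± 0.13), Lmx1b (1.28 ± 0.27), Pax8 (1.04 ± 0.21) and Sp8 (0.73 ± 0.13). Of 13 FGF receptor and response genes, 6 were higher and 3 lower, with a median of 0.347. The Ets factor Etv5 (1.37 ± 0.22), the feedback inhibitor Spry1 (0.67 ± 0.12) and Flrt3 (0.60 ± 0.10) were higher in wt PI, and Fgfr3 (-2.17 ± 0.18) was lower. Of 9 midbrain genes, 0 were higher and 3 were lower: Pax3 (-0.96 ± 0.15), Mab21l2 (-0.53 ± 0.17, adjusted p = 0.046) and Barhl2, which had 1 read in each wt PI library and 10 and 20 in the wt libraries. With library totals, 2 of the 9 were called lower.

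The cell type markers differed here too. Neural progenitor markers summed to 1068 to 1140 CPM in wt PI and 2492 to 2921 CPM in wt at 9.5 dpc, and blood markers to 7178 to 9080 CPM in wt PI and 14810 to 19700 CPM in wt. Alas2 alone of the blood markers was higher by group mean in wt PI, at 10.5 CPM and 6.89 CPM in wt. Forebrain markers summed to 1.18 to 2.76 CPM in wt PI, where 1 of 5 was at 0 in both libraries, and to 11.4 to 25.3 CPM in wt. This difference was mostly Lhx2, at 1.38 and 0.323 CPM in wt PI and 22.8 and 10.1 CPM in wt. Each of the 4 others averaged at most 1.46 CPM in either group, and Six3 and Rax were not lower in wt PI. The hindbrain markers were at 5.52 to 6.35 CPM in wt PI and 4.60 to 4.77 CPM in wt, and surface ectoderm at 42.3 to 54.1 CPM in wt PI and 25.7 to 36.3 CPM in wt. Placenta markers, of which there were 4, summed to 1.51 to 2.07 CPM in wt PI and 32.2 to 180 CPM in wt, against 2.96 to 3.81 CPM in wt at 9.0 dpc, and nearly all of the sum in wt at 9.5 dpc was Prl8a2. Mesenchyme markers, 5 in number, were at 117 to 123 CPM in wt PI, 179 to 196 CPM in wt and 134 to 152 CPM in wt at 9.0 dpc. Foxc2 alone of them was higher by group mean in wt PI than in wt at 9.5 dpc, at 1.66 and 0.570 CPM. The 4 endothelial markers were at 156 to 471 CPM over the 6 wt libraries, of which Pecam1 made up 91.7 to 419 CPM. The part of these differences in the members' levels was not tested.

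Wt PI at 9.5 dpc was also set against wt at 9.0 dpc. Here 5 of the 8 tested members were called, 4 higher and 1 lower in wt PI, where 15.6% of all genes were called. Cnpy1 was higher (2.82 ± 0.12, adjusted p = 5.05e-06), as were En2 (0.99 ± 0.13, adjusted p = 0.0013), Pax5 (0.84 ± 0.15, adjusted p = 0.00647) and Otx2 (0.61 ± 0.12, adjusted p = 0.00815). Gbx2 was lower (-0.77 ± 0.22, adjusted p = 0.0404), but the call was lost with library totals (-0.62, adjusted p = 0.0851), with DESeq2 and without any 1 of the 4 libraries. The Pax5 and Otx2 calls were lost without either wt PI library or without replicate 1 at 9.0 dpc, at adjusted p from 0.0502 to 0.0778 for Pax5 and 0.0628 to 0.0919 for Otx2. En1 was not called (0.35 ± 0.12, adjusted p = 0.0697), and passed with the replicate block (0.36, adjusted p = 0.0125) and with library totals (0.50, adjusted p = 0.0257). Wnt1 (0.69 ± 0.34, adjusted p = 0.206) and Fgf17 (0.31 ± 0.21, adjusted p = 0.359) were not called. Fgf8 had 15 reads in wt PI and 6 in wt at 9.0 dpc, a ratio of 2.32 with an interval of 0.851 to 7.30, and Pax2 had 19 and 23, a ratio of 0.767 with an interval of 0.395 to 1.47. Of the associated genes, 5 of 9 in the midbrain list were higher in wt PI and 0 lower, 2 of 8 other isthmus genes were higher and 0 lower, and 2 of 13 FGF genes were called in each direction. Fgf15 (1.94 ± 0.13), Tal2 (1.55 ± 0.12) and Spry1 (1.14 ± 0.12) were among the higher ones.

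The 3 wt comparisons share libraries, so their values stand side by side and are not independent. Cnpy1, En2, Fgf17 and Otx2 had their smallest fold change, in size, between wt PI and wt at 9.5 dpc. For En1 and Gbx2 it was between wt PI and wt at 9.0 dpc, and for Pax5 and Wnt1 between the wt stages. The calls also depend on which libraries set the spread. In a fit of all 11 libraries, 1 member was called between the stages, Cnpy1, and 0 in the other 2 wt comparisons.

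Ratios between members within a library do not depend on scaling. These 3 ratios were chosen after the values were seen and are given as a description. The En1 to En2 ratio of reads was 0.871 and 0.849 in the libraries labelled Skp1aKO, 0.603 and 0.613 in the Skp1acont pair, 0.631 in the Skp1acont PI library, 1.44 and 1.63 in wt PI, 0.405 and 0.553 in 9.5 dpc wt, and 2.53 and 2.302 in 9.0 dpc wt. En1 reads thus outnumbered En2 reads at 9.0 dpc and in wt PI and were fewer in the other groups. The Gbx2 to Otx2 ratio was 0.0111 and 0.0207 in Skp1aKO, 0.00344 and 0.00333 in the Skp1acont pair, 0.0174 in the Skp1acont PI library, 0.0423 and 0.0457 in wt PI, 0.0111 and 0.0181 in 9.5 dpc wt, and 0.135 and 0.102 in 9.0 dpc wt. It was lowest in Skp1acont, on 4 and 1 Gbx2 reads. The ratio of Cnpy1 to its neighbour En2 was 0.888 and 0.723 in Skp1aKO, 1.47 and 0.807 in the Skp1acont pair, 0.848 in the Skp1acont PI library, 2.61 and 3.26 in wt PI, 2.15 and 2.25 in 9.5 dpc wt, and 0.881 and 0.788 in 9.0 dpc wt. All 4 wt libraries at 9.5 dpc were above the other 7 libraries for that ratio.

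**Figure D3:**
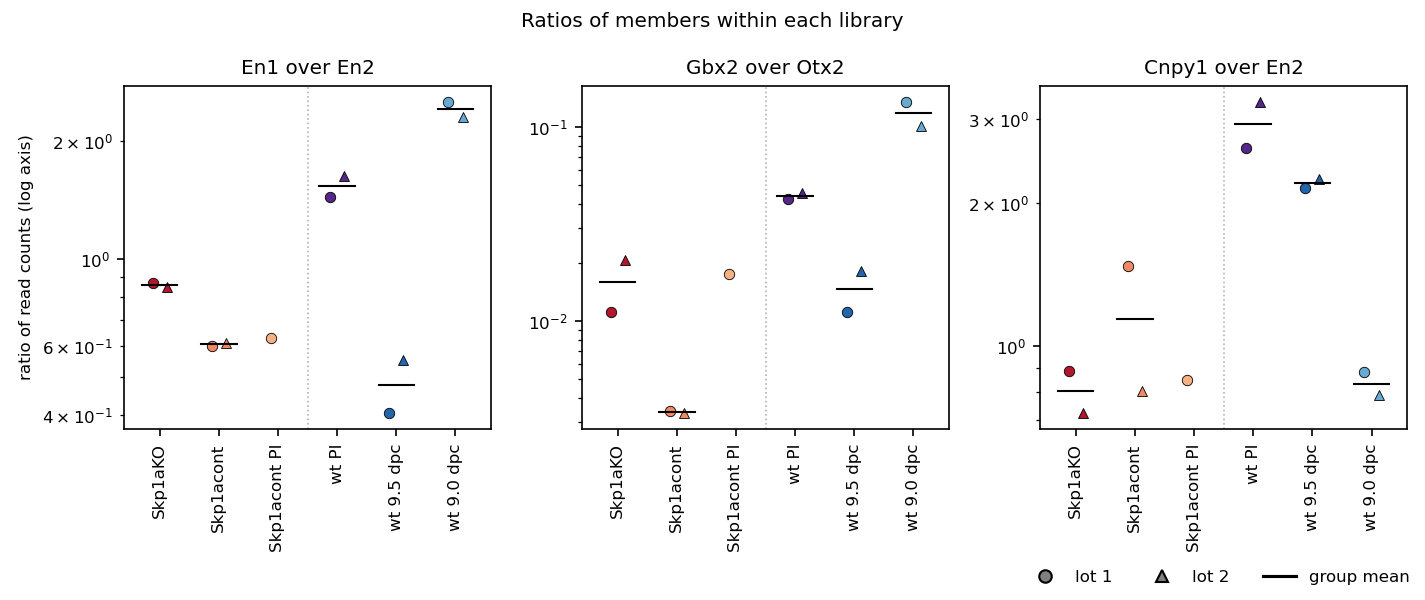
Ratio of read counts of 2 members within each of the 11 libraries (vertical log axis) by group (horizontal axis); circles are lot 1, triangles lot 2, and the bar is the mean of the group's ratios. The Cnpy1 to En2 ratio lies at 2.15 to 3.26 in the 4 wt libraries at 9.5 dpc and at 1.47 or less in the others.

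The comparison of Skp1aKO with Skp1acont is the knockout comparison the labels imply. No member could be called different between these labels: 0 of 10 had an adjusted p under 0.05, where 0% of all genes did. By unadjusted p under 0.05 there were 3 members and 1308 genes, and DESeq2 called 1 member, En1 (1.17, adjusted p = 0.0254). En1 averaged 57.2 ± 3.42 CPM in the Skp1aKO-labelled pair and 25.0 ± 11.1 CPM in Skp1acont (SD, n = 2 each), a log2 fold change of 1.18 ± 0.33 (adjusted p = 0.437). Gbx2 had 27 reads in Skp1aKO and 5 in Skp1acont, a ratio of 5.03 with a counting interval of 1.91 to 16.7, and an adjusted p of 0.356. Fgf17 had a log2 fold change of -1.09 ± 0.41 (adjusted p = 0.609), Pax5 0.56 ± 0.26 (adjusted p = 0.735) and En2 0.68 ± 0.33 (adjusted p = 0.766). The 5 others lay between -0.42 (Pax2) and 0.26 (Otx2), all at an adjusted p of 1.

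The Skp1acont pair differed widely. Its 2 libraries stood on either side of Skp1aKO for Fgf8, Wnt1, Cnpy1 and Otx2. Of all 11 libraries, replicate 2 was lowest in total counts and highest in mitochondrial share and in receptor background. Without it, 5 members were called, where 27.3% of genes were: En1 (0.82 ± 0.23, adjusted p = 0.0113), Gbx2 (1.94 ± 0.63, adjusted p = 0.025) and Pax5 (0.65 ± 0.24, adjusted p = 0.0497) were higher in the libraries labelled Skp1aKO, and Fgf17 (-1.53 ± 0.33, adjusted p = 0.0014) and Cnpy1 (-0.57 ± 0.21, adjusted p = 0.0447) were lower. Without replicate 1 in its place, 5 members were again called, where 31.3% of genes were, all higher in Skp1aKO. They were En1 (1.71 ± 0.19), Gbx2 (3.17 ± 0.85), Cnpy1 (1.22 ± 0.17), En2 (1.22 ± 0.18) and Otx2 (1.03 ± 0.17), so that Cnpy1 turned its direction with the library used. En1, Gbx2, En2 and Pax5 were higher in Skp1aKO either way, with En2 at 0.30 and 1.22 and Pax5 at 0.65 and 0.46. For each, both Skp1aKO libraries were above both Skp1acont libraries. Fgf17 and Pax2 were lower either way, with both Skp1aKO libraries below both Skp1acont libraries. The share of all genes that stood so was not counted. Gbx2 was above the 90th percentile of the receptor genes in 0 of 5 libraries with a Skp1a label. In both fits the lone Skp1acont library is assumed to vary like the other groups.

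Of the 3 lists of associated genes, 0 genes were called between Skp1aKO and Skp1acont. The smallest p in them belonged to Tal2 (-1.39 ± 0.39, adjusted p = 0.444) and to Hes1, a Notch-response repressor (1.15 ± 0.40, adjusted p = 0.564). Neural progenitor markers were at 696 to 745 CPM in Skp1aKO and 278 to 981 CPM in Skp1acont, and forebrain markers at 12.4 to 14.6 CPM and 6.08 to 18.1 CPM. Hindbrain markers were at 12.4 to 13.9 CPM in Skp1aKO and 7.60 to 16.6 CPM in Skp1acont.

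Set against wt at 9.5 dpc, the libraries labelled Skp1aKO had more Pax5 and En1 and less Fgf17. With Fgf8 and Pax2, whose calls have limits given below, 5 of 10 members were called, where 36.4% of all genes were. The count is not read as a result about the members. Pax5 averaged 47.7 ± 8.12 CPM in Skp1aKO and 11.9 ± 0.206 CPM in wt, a log2 fold change of 2.0 ± 0.27 (adjusted p = 0.00324). En1 averaged 57.2 ± 3.42 CPM in Skp1aKO and 26.3 ± 3.95 CPM in wt, a log2 fold change of 1.11 ± 0.33 (adjusted p = 0.0291). Fgf17 averaged 5.01 ± 1.03 CPM in Skp1aKO and 13.4 ± 2.31 CPM in wt, a log2 fold change of -1.43 ± 0.41 (adjusted p = 0.0267). For all 3 genes the groups did not overlap, but the share of all genes for which this holds was not counted. Per kb of exon, Fgf17 was below the 90th percentile of the receptor genes in both Skp1aKO libraries, at 2.54 and 3.40 CPM per kb where that percentile was 4.76 and 4.22. Pax5 was at 4.74 and 6.04 CPM per kb in the same libraries, so that it was below that percentile in replicate 1. The part of the receptor background in these calls was not tested.

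Fgf8 had 26 reads in Skp1aKO and 2 in wt, a ratio of 14.3 with a counting interval of 3.58 to 124 (adjusted p = 0.0352), and Pax2 had 17 and 5, a ratio of 3.74 with an interval of 1.32 to 13.0 (adjusted p = 0.0396). Both passed the filter on low counts through libraries with a Skp1a label, where they are higher, so these calls are not read as support, and neither gene was above the 90th percentile of the receptor genes in any such library. The receptor genes were higher there too. Their median was 0.517 and 0.585 CPM per kb in Skp1aKO and 0.135 and 0.147 CPM per kb in wt at 9.5 dpc, and the part of this background in the 2 calls was not tested. With no filter, the Pax2 call was lost (adjusted p = 0.0999). The other 5 members were not called. Cnpy1 had a log2 fold change of -1.19 ± 0.49 (adjusted p = 0.0764), Wnt1 1.23 ± 0.57 (adjusted p = 0.105), Otx2 -0.51 ± 0.44 (adjusted p = 0.355), Gbx2 -0.46 ± 0.43 (adjusted p = 0.395) and En2 0.27 ± 0.33 (adjusted p = 0.512).

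Scaling matters for all comparisons across these labels. Over all genes, the median log2 fold change was 0.236 for Skp1aKO against wt, 0.342 for Skp1acont against wt and 0.10 for Skp1acont PI against wt PI with TMM, and 1.04, 1.08 and 0.69 with library totals. With totals the called members of Skp1aKO against wt were 6, all higher, and Fgf17 was no longer called (-0.61, adjusted p = 0.231). Pax5 was above the median gene by either scaling, with a log2 fold change of 2.0 with TMM and 2.82 with totals. Over all genes, 3323 were called higher and 3529 lower in Skp1aKO than in wt with TMM, and 6829 higher and 1395 lower with totals. For Skp1acont these numbers were 3642 and 3224 with TMM and 7097 and 1246 with totals, and for Skp1acont PI 21 and 62 with TMM and 1043 and 131 with totals. Between the wt groups the medians were -0.03 to 0.03 with TMM and 0.04 to 0.18 with totals. The calls were 1963 higher and 2198 lower between stages with TMM and 2417 and 1362 with totals, and for wt PI against wt at 9.0 dpc 1129 and 917 with TMM and 1870 and 516 with totals. The members called in the last comparison were then 5 higher and 0 lower.

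Between Skp1acont and wt at 9.5 dpc, 4 of 10 members were called, 3 higher and 1 lower, where 36.4% of all genes were. That count is near the share over all genes and is not read as a result about the members. This comparison shares the wt libraries with the last, so the values stand side by side. Pax5 averaged 32.5 ± 2.35 CPM in Skp1acont and 11.9 ± 0.206 CPM in wt, a log2 fold change of 1.44 ± 0.27 (adjusted p = 0.00923). Gbx2 had 5 reads in Skp1acont and 44 in wt, a ratio of 0.134 with a counting interval of 0.0415 to 0.337 (adjusted p = 0.00994). Fgf8 had 22 and 2 reads in these groups, a ratio of 13.0 with an interval of 3.19 to 114 (adjusted p = 0.0358), and Pax2 21 and 5, a ratio of 4.96 with an interval of 1.82 to 16.8 (adjusted p = 0.021). The limits on these 2 genes hold here too. The receptor median was 0.236 and 0.982 CPM per kb in Skp1acont and 0.135 and 0.147 CPM per kb in wt. Its part in the calls, that of Pax5 included, was not tested. Pax5, at 3.48 and 3.85 CPM per kb in Skp1acont, was below the 90th percentile of the receptor genes in replicate 2, where that percentile was 7.46.

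The members not called were Cnpy1 (-1.23 ± 0.49, adjusted p = 0.0687), Wnt1 (1.30 ± 0.57, adjusted p = 0.0902), Otx2 (-0.77 ± 0.44, adjusted p = 0.173), En2 (-0.41 ± 0.33, adjusted p = 0.32), Fgf17 (-0.34 ± 0.39, adjusted p = 0.488) and En1 (-0.07 ± 0.33, adjusted p = 0.88). Without Skp1acont replicate 2, 4 members were called, where 39.1% of genes were: Pax5, Gbx2, Pax2 and Wnt1. Without replicate 1, 9 were called, where 74% of genes were. Without either wt library, 0 or 1 member was called. The comparison of Skp1aKO with wt changed likewise. Without Skp1acont replicate 2, which there only sets the spread, 8 members were called, where 67.9% of genes were, and without any library of Skp1aKO or wt 0 or 1 was called.

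Associated genes that passed in both comparisons with wt included the Ets factor Etv4 and the feedback inhibitor Spry2. Etv4 had 24 and 23 reads in Skp1aKO, 19 and 23 in Skp1acont, and 1 and 4 in wt at 9.5 dpc, with adjusted p = 0.00588 for Skp1aKO and 0.00807 for Skp1acont. It too passed the filter only in the fit with these libraries, and per kb of exon it was below the 90th percentile of the receptor genes in all 4 of them, so that its calls carry the limits of Fgf8 and Pax2. Spry2 had log2 fold changes of 1.96 ± 0.44 and 2.29 ± 0.45 for these labels against wt. The MAP kinase phosphatase gene Dusp6 was lower in both, at -1.39 ± 0.38 and -1.38 ± 0.38, but neither call held with library totals (-0.57 and -0.67). Of 14 FGF receptor and response genes, 2 were higher and 3 lower in Skp1aKO, with a median log2 fold change of -0.567, and 3 were higher and 4 lower in Skp1acont, with a median of -0.61. With 36.4% of all genes called in each comparison, 5 and 7 of 14 are not read as a result about the list. With library totals 5 and 4 were higher and 0 lower in these groups.

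Of 8 other isthmus genes, 2 were higher in Skp1aKO, Lmx1b (1.79 ± 0.35) and Pax8 (1.41 ± 0.36), and 1 was lower, Sp8 (-1.35 ± 0.39). In Skp1acont, Lmx1b was higher (1.53 ± 0.36), and Sp8 (-1.41 ± 0.39) and Tle4 (-1.40 ± 0.45) were lower. These 3 of 8 in each comparison are near the share over all genes. With library totals 5 of the 8 were higher in Skp1aKO and 4 in Skp1acont, and 0 were lower. Per kb of exon, Lmx1b was at 2.85 and 2.31 CPM per kb in Skp1aKO and 1.75 and 2.60 in Skp1acont. The 90th percentile of the receptor genes was higher in each of these libraries, at 4.76 and 4.22 in Skp1aKO and 2.21 and 7.46 in Skp1acont. Pax8 was below that percentile in replicate 2 of Skp1aKO, at 3.24 CPM per kb. The part of the receptor background in the Lmx1b and Pax8 calls was not tested. Of 9 midbrain genes, 1 was lower in Skp1aKO, Tal2 (-2.25 ± 0.40), and 0 were called in Skp1acont.

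Several marker sums differed with the Skp1a label. Blood markers were at 641 to 878 CPM in Skp1aKO and 603 to 2186 CPM in Skp1acont, against 14810 to 19700 CPM in wt at 9.5 dpc. The sum of the neural progenitor markers, 696 to 745 CPM in Skp1aKO, was also below the 2492 CPM of the lower wt library, while Hes5 alone was higher by group mean, at 33.6 CPM in Skp1aKO and 23.5 CPM in wt. The sum of the endothelial markers was 634 to 1178 CPM in Skp1aKO and 629 to 1184 CPM in Skp1acont, against 156 to 452 CPM in wt, and most of it was Pecam1. The 3 others went the other way by group mean, with Kdr at 14.1 CPM in Skp1aKO and 37.7 CPM in wt, Cdh5 at 5.0 and 18.0 CPM, and Tek at 2.29 and 11.4 CPM in these groups. Mesenchyme markers were at 100 to 116 CPM in Skp1aKO, 84.2 to 119 CPM in Skp1acont and 179 to 196 CPM in wt, and surface ectoderm markers at 20.3 to 24.3 CPM, 18.7 to 19.8 CPM and 25.7 to 36.3 CPM. Placenta markers were at 1.99 to 3.21 CPM in Skp1aKO and 0.57 to 3.02 CPM in Skp1acont, with 1 and 2 of 4 genes at 0. The part of these differences in the members' levels was not tested.

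**Figure D4:**
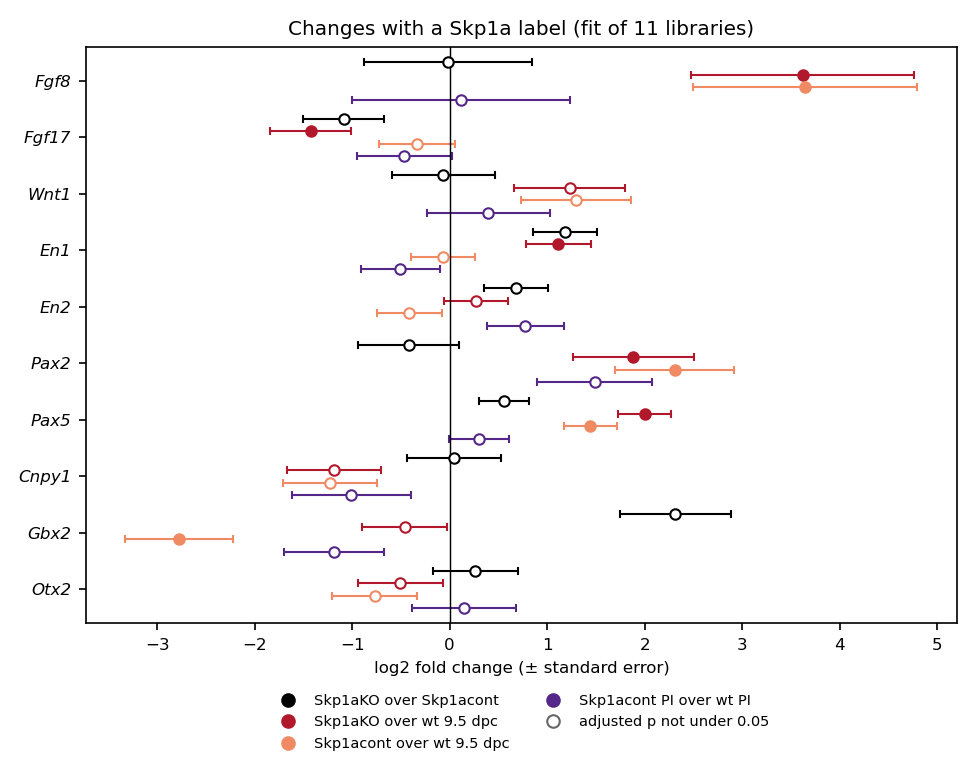
Log2 fold change with its standard error (horizontal axis) for each member in the 4 comparisons that involve a Skp1a label, from the fit of all 11 libraries; filled points have an adjusted p under 0.05. Pax5 lies at 2.0 and 1.44 against wt, both filled, and no point of Skp1aKO against Skp1acont or of Skp1acont PI against wt PI is filled.

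Skp1acont PI, with 1 library, was set against wt PI. Of 10 members 0 were called, where 0.441% of all genes were, and 2 members and 4635 genes had an unadjusted p under 0.05. Pax2 had 22 reads in the Skp1acont PI library and 19 in wt PI, a ratio of 2.76 with a counting interval of 1.43 to 5.40 (adjusted p = 0.166). Gbx2 had a log2 fold change of -1.19 ± 0.52 (adjusted p = 0.191), En2 0.78 ± 0.39 (adjusted p = 0.246), Cnpy1 -1.01 ± 0.61 (adjusted p = 0.318) and En1 -0.51 ± 0.40 (adjusted p = 0.437). Without Skp1acont replicate 2, whose part here is to set the spread, 4 members were called, where 43.2% of genes were: En2 (0.91 ± 0.21, adjusted p = 0.00118) and Pax2 (1.57 ± 0.52, adjusted p = 0.0166) were higher, and Cnpy1 (-0.89 ± 0.22, adjusted p = 0.00237) and Gbx2 (-1.08 ± 0.42, adjusted p = 0.0379) lower in Skp1acont PI. The lone library is assumed to vary like the others in each of these fits. In the associated lists 0 genes were called, and the smallest p was that of Fgfr3 (1.68 ± 0.38, adjusted p = 0.0616).

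Marker sums of the Skp1acont PI library were 790 CPM for neural progenitor, 8.41 CPM for forebrain, 10.6 CPM for hindbrain and 4640 CPM for blood genes. They were 914 CPM for endothelium, 115 CPM for mesenchyme, 29.4 CPM for surface ectoderm and 0.978 CPM for placenta genes. Whether the PI difference itself depended on the Skp1acont label was tested as an interaction, chosen after the values were seen. The largest difference by p was that of Pax5, whose PI log2 fold change was lower by 1.14 in Skp1acont than in wt on the fitted scale, and the smallest adjusted p of any member was 0.771.

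Genes outside the set whose profile was most like the members were ranked by the median Pearson correlation of log2 CPM with the members, a description over libraries that share stage, label and depth. Over the 6 wt libraries they were Id3, a BMP-responsive inhibitor of bHLH factors (median r = 0.852), Aamp (0.849), the mitochondrial carrier Slc25a5 (0.846), the phosphatase gene Ptpn2 (0.845) and Nudt5 (0.845). Since the members themselves stood in different orders among the wt groups, the correlation of Id3 with single members ran from -0.676 to 0.973. Over all 11 libraries the closest were Slco3a1 (0.54), Trh (0.529), Stx2 (0.524), Pde1b (0.52) and Uggt1 (0.511), lower values than over wt alone.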

How the data were processed

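Poly(A) RNA-seq of mouse embryos was analysed. The deposited values are unnormalized whole-number counts of reads, for 36255 genes in 11 libraries; the other of the 12 labelled libraries, Skp1acont PI lot 2, was not analysed here. The submitters' processing notes name Trim Galore 0.6.7 for trimming and GRCm38 as the build; which aligner, counter and strand setting were used is not given in the sources used here. Libraries were grouped by title.

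The test was that of edgeR 4.0.16 under R 4.3.3 (filterByExpr, TMM, robust quasi-likelihood F test, two-sided, Benjamini-Hochberg over all genes tested, called at an adjusted p under 0.05). Comparisons with a Skp1a label used 1 fit of all 11 libraries (18837 genes, biological coefficient of variation 35.4%), and those among wt groups a fit of the 6 wt libraries (13126 genes, 19.6%), whose fold changes carry that fit's own TMM factors. CPM printed are TMM-scaled over all 11 libraries, except the floors for a count of 0, which use library totals. Tests were checked on simulated data. Intervals for ratios of low counts are exact conditional binomial intervals at 95% confidence.

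Alternatives were DESeq2 size factors, the DESeq2 1.42.0 Wald test, library totals, no filter, at least 1 CPM in at least 4 libraries (2 in wt), the lot as a replicate block, other sets of libraries in the fit, and each library left out. Same-lot libraries deviated together in the 3 pairs of wt groups (r = 0.297 to 0.343 across genes) and less so in the 7 pairs with a Skp1a label (r = -0.011 to 0.18), so that a pairing by lot was seen in the data of the wt libraries; the labels do not state one. The fit without the lot is the one reported, and the blocked fit is an alternative, printed where it changes a call.

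All 10 members are named in every comparison, with at most the 4 genes of smallest p from each associated list. The like-pattern genes are the 5 closest with a mean of at least 5 CPM in wt. Members, lists and tests were chosen with earlier results of these data known.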

Additional observations from a re-analysis of the deposited data

How the results depend on the processing

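Of the members' fold changes under other settings, 368 kept their direction and their side of the threshold, 31 lost and 20 gained a call, and 19 turned sign; with single libraries left out these numbers were 171, 48, 22 and 15. The cause was not tested. The number of called members for Skp1aKO against Skp1acont was 0, and 1 with DESeq2. For Skp1aKO against wt it was 5, and 3 with DESeq2 or with no filter on low counts. For Skp1acont against wt it was 4, and 0 in a fit of only those groups. For Skp1acont PI against wt PI it was 0, 1 with library totals and 7 in a fit of only those groups. Among wt groups it was 6 between stages and 1 in a fit of all 11 libraries; 6 for wt PI against wt, 3 with DESeq2 and 0 with all 11 libraries; and 5 for wt PI against wt at 9.0 dpc, and 0 with all 11 libraries. With single libraries left out, the number of called members ran from 0 to 5 for Skp1aKO against Skp1acont, 0 to 8 for Skp1aKO against wt, 0 to 9 for Skp1acont against wt, 0 to 4 for Skp1acont PI against wt PI, 5 to 6 between wt stages, 2 to 6 for wt PI against wt and 2 to 4 for wt PI against wt at 9.0 dpc. The Skp1acont PI library itself, the lone one of its group, was not left out.

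With the lot number as a replicate block, 7, 6 and 6 members were called in the wt comparisons in place of 6, 6 and 5, and the calls gained were Fgf17 between stages and En1 for wt PI against wt at 9.0 dpc; no other call of a member changed. In the comparisons with a Skp1a label, whose lots were not taken as paired, the numbers of called members were 0, 5, 4 and 0 with the block, as without it.

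Some log2 fold changes turned sign. Of these, Cnpy1 for Skp1aKO against Skp1acont was called on both sides, at -0.57 without Skp1acont replicate 2 and 1.22 without replicate 1, and no other was called where it had turned. For Skp1aKO against Skp1acont they were those of Fgf8 (0.013 with totals, 0.041 with no filter, 0.10 with the block, -0.79 to 1.31 with libraries left out), Wnt1 (0.035 with totals, -0.63 to 1.07), Cnpy1 (-0.016 with no filter, -0.57 to 1.22) and Otx2 (-0.22 to 1.03). For Skp1aKO against wt they were Gbx2 (0.37 with totals, -0.90 to 0.16) and Otx2 (0.30 with totals). For Skp1acont against wt they were Fgf17 (0.37 with totals, -1.07 to 0.22), En2 (0.30 with totals, -0.94 to 0.11) and En1 (0.17 with size factors and with DESeq2, 0.65 with totals, 0.14 with the CPM filter, 0.24 in a fit of those groups, -0.59 to 0.43). For Skp1acont PI against wt PI they were Fgf17 (0.14) and En1 (0.10), both with totals. For wt PI against wt it was Cnpy1 (-0.019 with size factors, -0.011 with DESeq2, -0.008 with no filter, -0.10 to 0.14 with libraries left out). Over all genes, the number called by setting, and with single libraries left out, ran from 0 to 96 and 0 to 5723 for Skp1aKO against Skp1acont (0 as designed), 6291 to 9990 and 281 to 11548 for Skp1aKO against wt (6852), 0 to 8343 and 13 to 13512 for Skp1acont against wt (6866), and 17 to 7998 and 1 to 7347 for Skp1acont PI against wt PI (83). Among wt groups it ran from 302 to 5469 and 2503 to 3391 between stages (4161), 13 to 5111 and 1289 to 3188 for wt PI against wt (3669), and 2 to 3735 and 320 to 1124 for wt PI against wt at 9.0 dpc (2046). Low reads limit Fgf8 and Pax2 in all groups and Gbx2 in Skp1acont.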
